A study of Mus musculus with 20 samples.

Results

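The granins and their companions in the dense-core granule are described here as 8 genes, *Chga*, *Chgb*, *Scg2*, *Scg3*, *Vgf*, *Ptprn*, *Ptprn2* and *Ica1*. They were found by matching the Ensembl identifiers of the expression table to these symbols, and all 8 were present among the 26211 genes of the table. RNA-seq was done on pancreatic islets, the clusters of hormone-secreting cells in the pancreas, of P2Y14-knockout mice (KO, 10 libraries) and of wild-type mice (WT, 10 libraries). Both genotypes were on the mixed strain C57BL/6 x 129S6, and all islets were picked by hand after enzyme digestion and kept in culture overnight. P2Y14 is a purinergic receptor, the product of *P2ry14*, that couples to G proteins and answers to UDP-glucose, and the series title links it to insulin release. The sources used here do not give the allele, the age and sex of the mice or the number of animals behind each library, so p-values measure the spread between these libraries.

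Endocrine cells store peptide hormones in dense-core granules, which bud from the trans-Golgi network and release their content when calcium rises. Granins are acidic proteins of the granule core that aggregate with calcium and hormones, take part in granule formation and are themselves cut into peptides. Other proteins span the granule membrane or help the granule to form and mature. In islets, granins are made by several endocrine cell types and not by beta cells alone.

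*P2ry14* itself had a normalized read count of 51.2 ± 31.4 in KO islets and 151 ± 67.4 in WT islets (SD, n = 10 each), and 8 KO libraries lay below the lowest WT library (two-sided permutation test of the means, p = 0.00016). By limma its log2 fold change was −1.97 (SE 0.59) at an adjusted p of 0.244 over all genes. Reads summed over genes ranged from 34520628 to 199847246 per library, and the lowest read number of any of the 8 granule genes in any library was 135. Markers of beta cells took 28.6 ± 10.0% of reads in KO islets and 28.8 ± 7.77% in WT islets (SD, n = 10 each), and markers of acinar cells, the enzyme-making cells around the islets, took 21.3 ± 8.48% in KO islets and 20.1 ± 8.25% in WT islets. Markers of alpha cells, which make glucagon, took 1.18 ± 0.51% in KO islets and 1.91 ± 0.70% in WT islets. Beta marker reads were mostly those of the insulin gene *Ins2*, with a mean of 26673100 of 28360600 normalized reads in KO islets. In WT islets this was 23707700 of 25265300. Alpha marker reads were mostly those of the glucagon gene *Gcg*, with 1118090 of 1154900 in KO islets and 1573440 of 1608520 in WT islets.

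Of the 8 granule genes, 0 differed between KO and WT islets at an adjusted p under 0.05 by limma, against 0.28% of all 17482 genes tested. None of the 8 had an unadjusted p under 0.05, as 8.94% of all genes tested had, and edgeR and DESeq2 on the reads recovered from the values also called 0. The log2 fold changes were negative for 6 genes (*Chga*, *Chgb*, *Vgf*, *Ptprn*, *Ptprn2* and *Ica1*) and positive for *Scg2* and *Scg3*, with a median of −0.14 beside −0.002 over all genes tested. Taken over the 8 genes, the limits of the 95% intervals lay between a 0.651-fold level in KO over WT, for *Vgf*, and a 1.39-fold level, for *Scg2*, and the intervals of the other genes were inside these limits. Of 6 ratios between these genes, 1 passed its test: the ratio of *Scg2* to *Chgb* was higher in KO islets, by 0.32 on the log2 scale, although this call ended in most fits that left out 1 library.

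**Figure D1:**
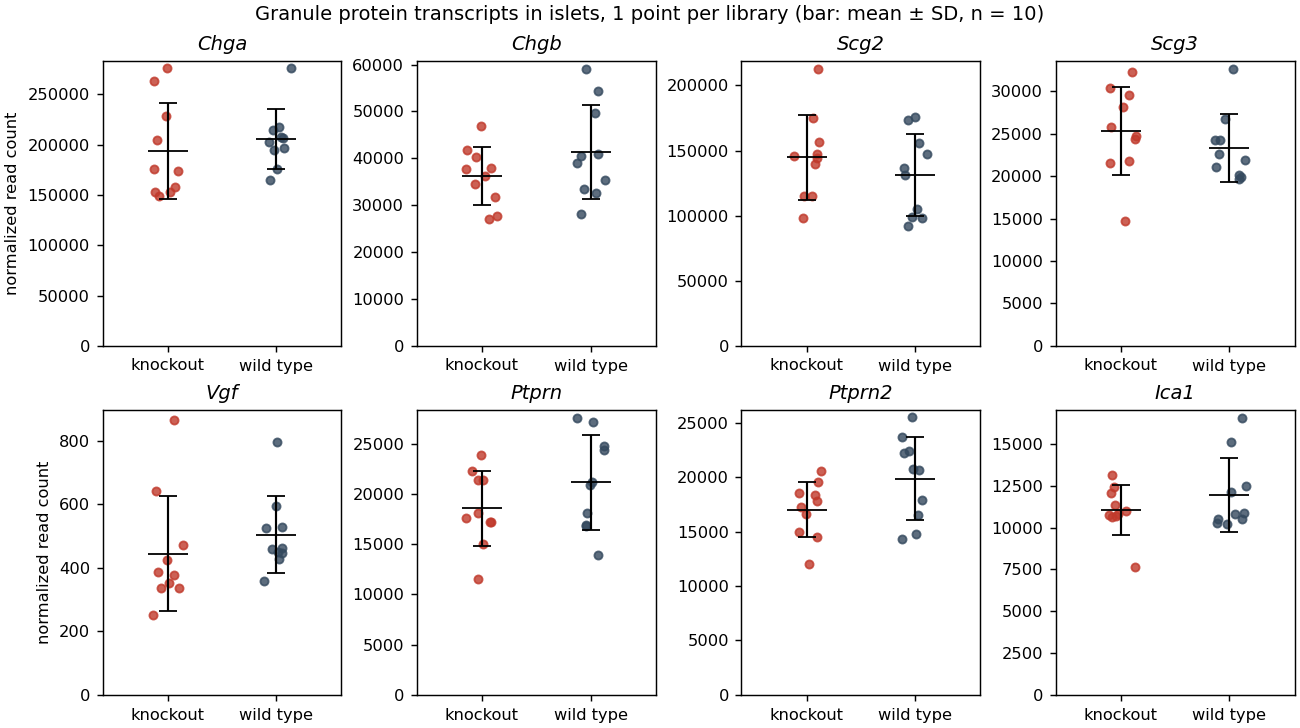
Normalized read count of each granule gene (vertical axes from 0) in the 10 KO libraries (red, left) and 10 WT libraries (blue, right); bars are means ± SD. The groups overlap for every gene, and *Scg2* and *Scg3* are the genes whose KO mean lies above the WT mean.

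Promoter letters are shown for *Scg2* and *Chgb*, because theirs was the ratio that differed and because granin promoters are known for a cAMP response element, the site bound by CREB family factors. The upstream sequences below are from RefSeq windows of 250 bases before to 50 after each gene's start (build GRCm38.p6), with the full palindromic element TGACGTCA in capitals and 30 bases on either side.
Scg2: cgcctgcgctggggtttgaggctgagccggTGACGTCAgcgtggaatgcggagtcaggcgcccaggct
Chgb: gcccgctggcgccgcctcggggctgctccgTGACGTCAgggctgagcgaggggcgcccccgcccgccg
The *Scg2* stretch is chr1:79440057-79440124 on the minus strand, and its element begins 68 bases before the start. The *Chgb* stretch is chr2:132781540-132781607 on the plus strand, with the element 72 bases before the start, so both genes hold the same 8 letters at nearly the same distance. Windows were present for 7 of the 8 genes, and that for *Vgf* was not analysed here. These letters, which read the same on both strands, occurred in none of the windows of the other 5 genes and in 588 of 32851 windows (1.79%). Only these exact letters were searched, so a variant of the element in *Chga* or another gene would not be found. The TATA letters TATAAA, searched on both strands, shared no window with TGACGTCA among these genes. They were found before the start in the 2 windows of *Ica1* and past the start in that of *Chga*, and occurred in 13.6% of all windows. A match is a description of the letters and not of binding.

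*Chga* encodes chromogranin A, the granin from which the peptides vasostatin and pancreastatin are cut. It lies on chromosome 12 (ENSMUSG00000021194). Its normalized read count had a lowest value of 149305, a median of 174794 and a highest value of 276117 in KO libraries, and 164851, 205088 and 276580 in WT libraries. The highest values of the groups nearly coincided, and 4 KO libraries lay below the lowest WT library. The spread was wider in KO, with a coefficient of variation of 24.5% in KO and 14.5% in WT. This direction also held for *Scg3* and *Vgf*, whereas *Chgb*, *Scg2*, *Ptprn*, *Ptprn2* and *Ica1* had the larger coefficient in WT. KO and WT differed by −0.11 on the log2 scale (SE 0.14, 95% interval −0.40 to 0.17, adjusted p = 0.838 by limma).

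*Chgb* encodes chromogranin B, or secretogranin 1, the other chromogranin of the granule core (chromosome 2, ENSMUSG00000027350). It had 26958, 36937 and 46830 as lowest, median and highest normalized read count in KO libraries, and 28182, 39783 and 59145 in WT libraries. Of the 10 KO libraries, 8 were within the WT range and 8 below the WT mean, and the WT group reached higher. On the log2 scale the fold change was −0.17 (SE 0.14, 95% interval −0.46 to 0.11, adjusted p = 0.730 by limma).

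*Scg2* encodes secretogranin 2, the precursor of the peptide secretoneurin (chromosome 1, ENSMUSG00000050711). Its lowest, median and highest normalized read counts were 97890, 144969 and 212637 in KO libraries, and 91983, 133857 and 175596 in WT libraries. Only KO replicate 9, the highest of all, lay outside the WT range, and 7 KO libraries were above the WT mean. The log2 fold change of *Scg2* was 0.15 (SE 0.16, 95% interval −0.18 to 0.47, adjusted p = 0.811 by limma).

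*Scg3* encodes secretogranin 3, a granin that binds chromogranin A and cholesterol-rich membrane and so links the core to the membrane during sorting (chromosome 9, ENSMUSG00000032181). It had 14672, 25259 and 32244 in KO libraries and 19683, 22252 and 32681 in WT libraries, as lowest, median and highest normalized read count. KO replicate 10 was the only KO library below the lowest WT value. For *Scg3* the log2 fold change came to 0.10 (SE 0.13, 95% interval −0.16 to 0.37, adjusted p = 0.836 by limma).

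*Vgf* encodes a neurotrophin-inducible granin-like precursor of several bioactive peptides (chromosome 5, ENSMUSG00000037428). It was the scarcest of the 8, with 252, 381 and 866 in KO libraries and 359, 462 and 797 in WT libraries, as lowest, median and highest normalized read count. The KO group extended past the WT group at both ends: 4 KO libraries lay below the lowest WT value and KO replicate 6 above the highest. Its coefficient of variation of 40.7% in KO was the highest of the 8 genes, beside 23.9% in WT. Its log2 fold change, the farthest from 0 of the 8, was −0.24 (SE 0.18, 95% interval −0.62 to 0.14, adjusted p = 0.724 by limma). Without KO replicate 6 it was −0.36 (limma, adjusted p = 0.517).

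*Ptprn* and *Ptprn2* encode IA-2 and phogrin, paired transmembrane proteins of the granule that resemble receptor tyrosine phosphatases and are autoantigens in type 1 diabetes. *Ptprn* (chromosome 1, ENSMUSG00000026204) had a lowest, median and highest normalized read count of 11560, 17865 and 23819 in KO libraries, and 13904, 21043 and 27525 in WT libraries. *Ptprn2* (chromosome 12, ENSMUSG00000056553) had 12021, 17489 and 20551 in KO libraries, and 14319, 20724 and 25464 in WT libraries. For each of these genes 9 KO libraries were within the WT range, and for *Ptprn2* all 10 KO libraries lay below the WT median. The log2 fold change was −0.18 for *Ptprn* (SE 0.14, 95% interval −0.48 to 0.11, adjusted p = 0.724 by limma). For *Ptprn2* it was −0.21 (SE 0.12, 95% interval −0.46 to 0.03), and its adjusted p of 0.617 by limma was the lowest of the 8 genes.

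*Ica1* encodes ICA69, a BAR domain protein that works with PICK1 on the membrane of immature granules and is another islet autoantigen (chromosome 6, ENSMUSG00000062995). Its lowest, median and highest normalized read counts were 7632, 10903 and 13142 in KO libraries, and 10226, 10847 and 16577 in WT libraries. The medians almost coincided, and only KO replicate 5 lay below the WT range. KO over WT, the log2 fold change was −0.11 (SE 0.11, 95% interval −0.33 to 0.11, adjusted p = 0.803 by limma).

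**Figure D2:**
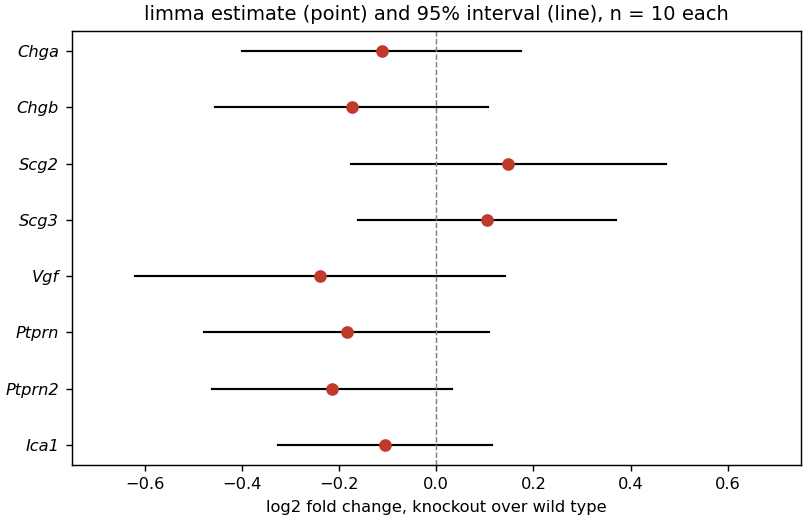
Log2 fold change of each granule gene, KO over WT, on the horizontal axis; points are limma estimates and lines their 95% intervals, with 10 libraries in each group. Every interval crosses 0, and the estimates lie between −0.24 for *Vgf* and 0.15 for *Scg2*.

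Per exon length, the order of the 8 genes was nearly the same in every library. *Chga* had 70242 ± 17206 normalized reads per kb in KO islets and 74711 ± 10831 in WT islets, and *Scg2* had 57604 ± 13009 in KO islets and 52212 ± 12561 in WT islets (SD, n = 10 each). These neighbours overlapped, *Chga* being the higher in 17 of 20 libraries. *Chgb* followed with 13200 ± 2264 per kb in KO islets and 15076 ± 3678 in WT islets, below *Scg2* in all 20 libraries by a median of 3.93-fold. *Scg3* was below *Chgb* in all 20 libraries, at 9252 ± 1895 per kb in KO islets and 8521 ± 1460 in WT islets. The recovered reads of *Chgb* were even in every library, while those of each other granule gene were odd in some. Whether *Chgb* was counted in pairs was not tested, so its level and its place above *Scg3*, by a median of 1.66-fold, are uncertain. The size of its step below *Scg2* and the levels of all ratios to *Chgb* carry the same limit. The membrane and assembly proteins came next. *Ptprn* had 4366 ± 874 per kb in KO islets and 4977 ± 1107 in WT islets, and *Ica1* was the lower of the pair in 19 of 20 libraries, at 3410 ± 455 in KO islets and 3686 ± 682 in WT islets. *Ptprn2*, whose annotated exons are the longest at 8602 bases, had 1977 ± 297 per kb in KO islets and 2309 ± 444 in WT islets. *Vgf* was last in all 20 libraries with 150 ± 60.8 per kb in KO islets and 170 ± 40.7 in WT islets, a median of 14.4-fold below *Ptprn2*. The exon length is the union over all annotated isoforms, so a gene whose islet isoform is shorter is understated.

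**Figure D3:**
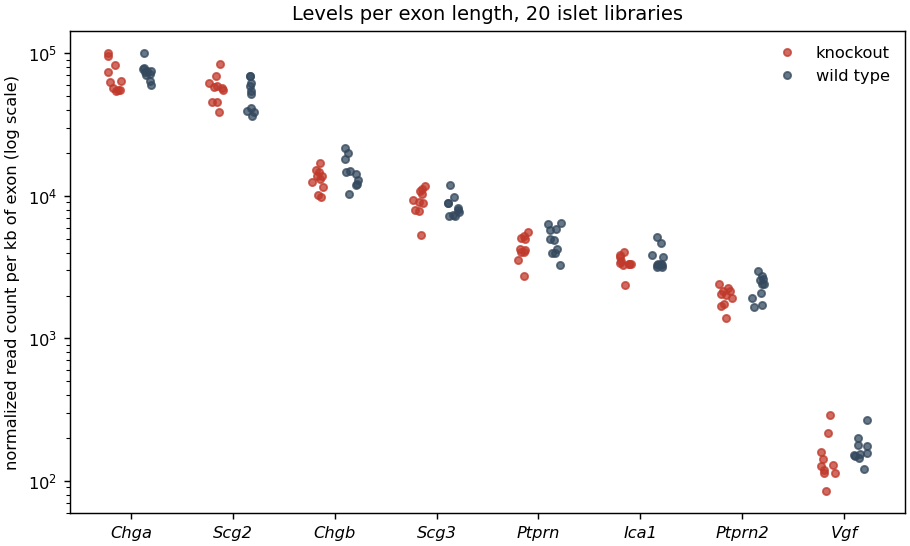
Normalized read count per kb of exon (vertical axis, log scale) for the 8 genes, ordered from high to low, with 1 point per KO library (red, left) and WT library (blue, right). *Chga* and *Scg2* overlap near the top, and *Vgf* lies apart at the bottom.

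Ratios between these genes within a library do not depend on how its total was normalized, and 6 were tested, with p-values adjusted over the 6. The log2 ratio of *Scg2* to *Chgb* had a lowest value of 1.74, a median of 1.94 and a highest of 2.34 in KO libraries, and 1.28, 1.62 and 2.22 in WT libraries. All 10 KO libraries were above the WT mean, and 8 of them were within the WT range. The mean was 1.99 ± 0.20 in KO islets and 1.67 ± 0.27 in WT islets (SD, n = 10 each), a difference of 0.32 (SE 0.11, two-sided permutation test, p = 0.00714, adjusted p = 0.0428). With every regrouping of the libraries enumerated, the adjusted p of this exact test was 0.0457. The difference stayed between 0.28 and 0.38 when 1 library was left out, with an adjusted p of 0.00234 to 0.0915 by permutation, and it passed the threshold in 6 of those 20 fits. These 6 were the fits without KO replicate 4 or 7 or without WT library 12, 15, 16 or 20.

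The other ratios did not differ beyond the spread. The log2 ratio of *Scg3* to *Chga* was −2.93 ± 0.32 in KO islets and −3.15 ± 0.21 in WT islets (SD, n = 10 each), a difference of 0.22 (SE 0.12) with an adjusted p of 0.268 by permutation. *Chga* to *Chgb* differed by 0.06 (SE 0.13), *Vgf* to *Chgb* by −0.07 (SE 0.18), *Ptprn* to *Ptprn2* by 0.03 (SE 0.10) and *Ica1* to *Ptprn* by 0.08 (SE 0.13), each with an adjusted p of 0.759 by permutation. *Ptprn* and *Ptprn2* thus kept close levels of normalized reads, with a median ratio of 1.08 in KO libraries and 1.05 in WT libraries, where reads are not corrected for length. The KO libraries were more spread in this ratio, from 0.767 to 1.47 in KO and from 0.876 to 1.22 in WT.

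**Figure D4:**
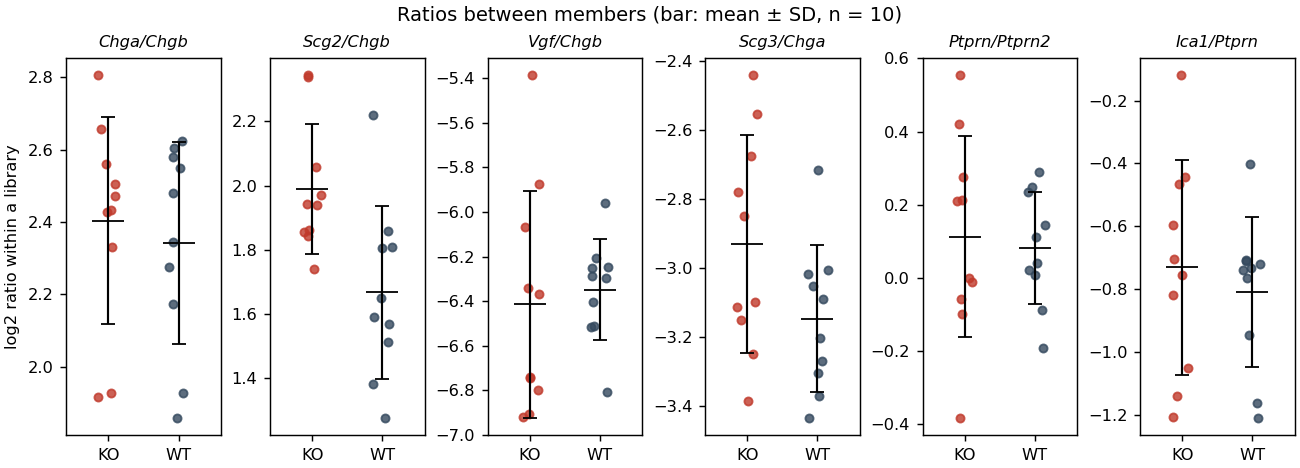
Log2 ratio of normalized read counts within a library (vertical axes, each with its own range) for the 6 pairs, KO left and WT right; points are libraries and bars means ± SD (n = 10). For *Scg2*/*Chgb* all KO points lie above the WT mean of 1.67, and 8 of them are within the WT range. The groups also overlap in the other 5 pairs, whose differences in mean did not pass the test.

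Markers of alpha cells and of delta and PP cells are given beside these values because their shares of reads were on average lower in KO, as were the means of most granule genes. Of 6 alpha markers, 5 had a negative fold change with an unadjusted p under 0.05, beside 8.94% of all genes, and none of the 6 passed the adjusted threshold by limma. *Gcg*, the glucagon gene, was at −0.57 on the log2 scale (SE 0.24; limma, adjusted p = 0.480). The summed normalized reads of the 6 ranged from 534555 to 1828930 in KO libraries and from 1187030 to 2279710 in WT libraries, and none of the 6 was at 0 throughout a group. Delta and PP cells secrete somatostatin and pancreatic polypeptide. All 4 of their markers had negative log2 fold changes (median −0.53), and 2 had an unadjusted p under 0.05. These were *Rbp4* (−0.67, adjusted p = 0.167 by limma) and *Sst* (−0.54, adjusted p = 0.406 by limma). The 4 markers took 0.224 ± 0.173% of reads in KO islets and 0.302 ± 0.070% in WT islets (SD, n = 10 each), with sums from 100543 to 550244 in KO libraries and from 187162 to 456686 in WT libraries, and their part in the granule gene values was not tested. Of 9 beta cell markers, 6 had a negative fold change, and *Ins1*, *Ins2* and *Iapp* a positive one. An unadjusted p under 0.05 was found for 3, all negative. These were *Mafa* (−0.55), *Slc2a2* (−0.42) and *Glp1r* (−0.35), at adjusted p of 0.497, 0.541 and 0.537 by limma. In bulk islets, fewer cells of a type and less RNA per cell cannot be told apart. Across the 20 libraries the log2 level of *Chgb* correlated with the alpha marker share at r = 0.55 (rho = 0.58, permutation test, adjusted p = 0.065 for r over the 8 genes), that of *Ptprn2* at r = 0.51 (rho = 0.46) and that of *Ptprn* at r = 0.50 (rho = 0.52), with the same adjusted p. Without the 2 libraries farthest from the median share these were 0.69, 0.49 and 0.69. Within the groups, r was 0.55 in KO and 0.45 in WT for *Chgb*, 0.21 in KO and 0.48 in WT for *Ptprn2* and 0.71 in KO and 0.24 in WT for *Ptprn*.

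With the log2 alpha marker share as a covariate, an alternative chosen after seeing the data, the log2 fold change was 0.022 for *Chgb* and 0.020 for *Ptprn*, on the other side of 0. It was 0.38 for *Scg2* and 0.31 for *Scg3*, again short of the threshold, at adjusted p of 0.455 and 0.440 by limma. The alpha marker share was mostly *Gcg* reads and was on average lower in KO islets. As a percent of all reads, it also falls where acinar reads take more. This covariate therefore does not stand for alpha cell number alone, and its overlap with genotype and acinar share was not separated. The ratio of *Scg2* to *Chgb* correlated with the alpha marker share at r = −0.17 (rho = −0.23, permutation test, p = 0.470), and at −0.13 in KO and 0.37 in WT. The acinar share showed no correlation past the adjusted threshold with any of the 8 genes. For *Scg2*, whose r was the farthest from 0, it was −0.43 (rho = −0.41, permutation test, adjusted p = 0.319), −0.32 within KO and −0.60 within WT. For *Chgb* it was −0.33 (rho = −0.46, permutation test, adjusted p = 0.196 for rho). Without the 2 libraries farthest from the median acinar share, r was −0.61 for *Scg2*, −0.49 for *Chgb*, −0.47 for *Ptprn* and −0.44 for *Scg3*. For the other genes it then lay between −0.29 and −0.02. The part of cell composition in the group differences was not tested beyond these covariates.

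The 8 genes varied together from library to library. All 28 pairs had a positive Pearson correlation of log2 normalized reads over the 20 libraries, from 0.16 to 0.84 with a median of 0.50, and 17 pairs had an adjusted p under 0.05 by permutation over the 28 (16 pairs by Spearman's rho). Within a library, all genes share 1 size factor and 1 mixture of cells, which these values do not separate. Pairs of other genes were not counted for comparison, so the correlation is not shown to be particular to the granule genes. *Chgb* and *Ptprn* were the closest pair, with r = 0.84 (rho = 0.83, adjusted p = 0.00028 by permutation), 0.83 without the 2 libraries farthest from the median of *Chgb*, 0.79 within KO and 0.87 within WT. *Chga* and *Scg2*, the most abundant pair per exon length, had the lowest r of 0.16 (rho = 0.22, adjusted p = 0.50 by permutation) and −0.03 without 2 libraries. The median r was 0.52 within KO, where 27 pairs were positive, and 0.72 within WT, where all 28 were; this difference was not tested. In KO, *Ica1* had r of 0.29 or less with every other gene, whereas in WT its r was at least 0.62, a contrast that was likewise not tested. Low r in KO was not confined to *Ica1*, as *Chgb* with *Ptprn2* was at 0.09. The *Ica1* values of WT libraries 11 and 16 (15116 and 16577) lay above the other WT values, and that of KO replicate 5 (7632) below the other KO values. How far these libraries set the r values was not tested.

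**Figure D5:**
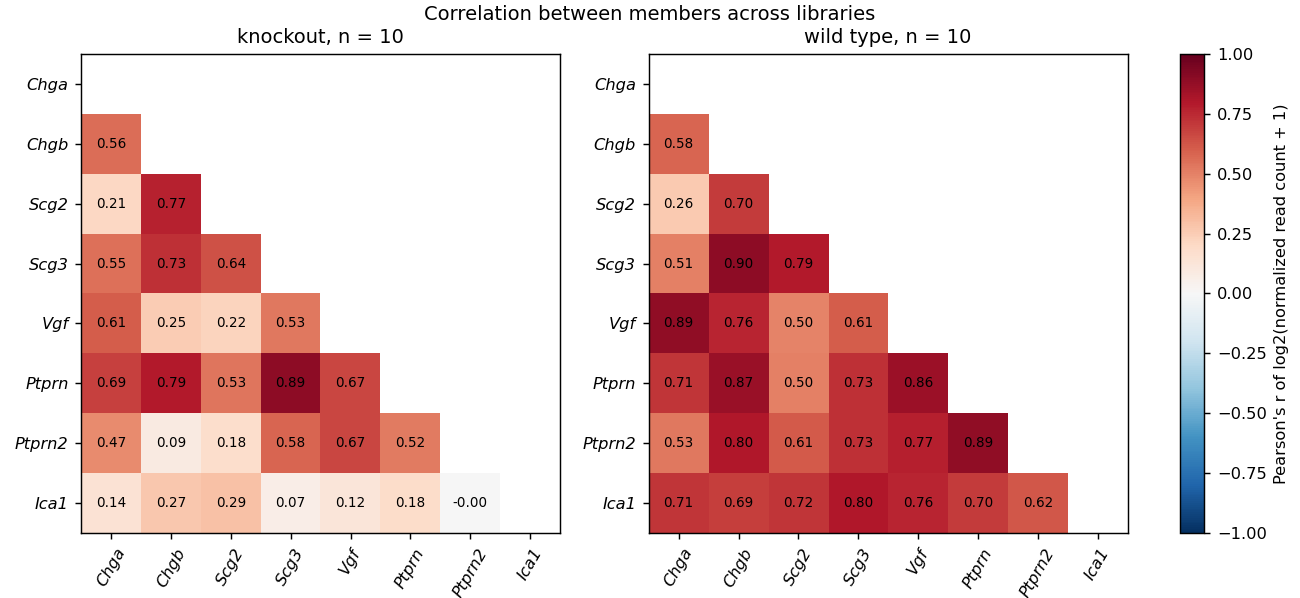
Pearson's r between the log2 normalized read counts of each pair of granule genes, within the 10 KO libraries (left) and within the 10 WT libraries (right); colour and printed number give r. The *Ica1* row is pale in KO and dark in WT, and *Chgb* with *Ptprn* is high in both.

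Single libraries carried the granule genes together. Relative to the WT mean of each gene, the median of the 8 in a library ran from −0.62 to 0.21 on the log2 scale in KO and from −0.36 to 0.43 in WT. KO replicate 10 was the low end and held the lowest value of either group for *Chgb*, *Scg3*, *Vgf*, *Ptprn* and *Ptprn2*. WT library 16 was the high end and held the highest value for *Chga*, *Ptprn*, *Ptprn2* and *Ica1*. Without KO replicate 10 the log2 fold change was −0.11 for *Ptprn*, −0.16 for *Ptprn2* and −0.16 for *Vgf*, with *Scg3* at 0.19.

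For each granule gene, the other genes that varied most like it were listed. Likeness was taken as Pearson's r over the 20 libraries of log2 normalized reads after subtracting each genotype's mean, among the 12362 genes whose mean reached 100, and the 3 highest are named for each gene. Picking the highest of so many values raises them by itself, and the level reached by unrelated genes was not computed. *Ptprn2* had the highest values, 0.95 with *Nptxr*, a neuronal pentraxin receptor, 0.95 with *Abat*, the GABA-degrading transaminase, and 0.94 with *Nkx6-1*, a transcription factor of beta cells. *Chgb* was most like *Pax6*, an endocrine transcription factor (0.87), *Ucn3*, the peptide urocortin 3 (0.86), and *Tmem215* (0.84). *Ptprn* was most like *Sez6l2* (0.89), the histone variant gene *H2afy* (0.88) and the calcium pump gene *Atp2a3* (0.85), and *Chga* was most like *Smarcal1* (0.88), *Bag6* (0.82) and *Sez6l2* (0.81). *Scg2* was most like *Fam114a1* (0.86), *Prkar1a*, a regulatory subunit of protein kinase A (0.84), and *Shc4* (0.83). For *Vgf* the genes were *Erlin2* (0.84), the clathrin adaptor subunit gene *Ap1b1* (0.83) and the chromatin remodeller gene *Smarca4* (0.82). For *Scg3* they were *Nell1* (0.84), ENSMUSG00000079716 (0.82) and *Gm44503* (0.82), and for *Ica1*, with the lowest values, *Lrrtm2* (0.81), *Hdgf* (0.78) and *Srpr* (0.78).

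The other cargo and processing enzymes of the granule were set beside the granins, and of 14 genes tested 0 were called by limma, edgeR or DESeq2, while 2 had an unadjusted p under 0.05, beside 8.94% of all genes. Of the 14 log2 fold changes, 9 were negative and 5 positive, with a median of −0.04. *Cartpt*, which encodes the CART peptide precursor, had normalized read counts of 5.82, 38.1 and 162 as lowest, median and highest in KO libraries, and 62.9, 98.2 and 171 in WT libraries. KO over WT it had a log2 value of −1.47 (SE 0.41) and an adjusted p of 0.186 by limma, and 9 KO libraries were below the WT mean. Without KO replicate 6 it was −1.71 (limma, adjusted p = 0.0398), the only one of 30 other settings past the threshold. *Gnas*, whose locus makes the stimulatory G protein alpha subunit and the granin-like NESP55, was at −0.33 on that scale (SE 0.12, adjusted p = 0.398 by limma), with all 10 KO libraries below the WT mean, and reads of its products were not separated. *Iapp*, the amyloid peptide secreted with insulin, had 0.19 (SE 0.14, adjusted p = 0.712 by limma).

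Of 19 genes of granule biogenesis and sorting tested, 0 were called by limma, edgeR or DESeq2 and 0 had an unadjusted p under 0.05, with 11 negative and 8 positive log2 fold changes and a median of −0.05. The smallest p-values belonged to *Sntb2*, a syntrophin that ties granules to the actin cortex through Ptprn (log2 fold change −0.48, SE 0.25), *Vps53*, a subunit of the GARP and EARP tethering complexes (0.14, SE 0.08), and *Vps41*, which acts in granule formation (−0.10, SE 0.07). Their adjusted p by limma were 0.587, 0.650 and 0.681.

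Of 10 genes listed here as possible regulators of granin transcripts, 0 were called by limma, edgeR or DESeq2. Among them 3 had an unadjusted p under 0.05, all 3 negative, beside 8.94% of all genes in either direction. In the list 8 log2 fold changes were negative and 2 positive, with a median of −0.14. *Ptbp1*, an RNA-binding protein that stabilises granule protein messages in rodent beta cells after glucose, had normalized read counts of 10440, 11857 and 14103 as lowest, median and highest in KO libraries, and 12879, 13691 and 17123 in WT libraries. All 10 KO libraries were below the WT mean, a log2 fold change of −0.24 with an SE of 0.08 (limma, adjusted p = 0.289). The endocrine transcription factor gene *Neurod1* had −0.33 (SE 0.15, adjusted p = 0.544 by limma) and *Stat5b*, a transcription factor of hormone and cytokine signalling, −0.30 (SE 0.14, adjusted p = 0.526 by limma).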

How the data were processed

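The deposited values are a signal: reads per gene over the size factor of the library, which the file's name calls DESeq-normalized. The authors used DESeq 1.16.0, Cufflinks 1.3.0, Bowtie 0.9.9, TopHat 1.3.3 and FastQC with build mm9, per the submitters' processing notes; the sources used here do not give the counter or annotation. Libraries came from a TruSeq RNA v2 kit, per the labels' protocols, which does not mark strand, so reads of overlapping genes are not separated. In each column 100% of values were whole multiples of 1 step (tolerance 0.05 reads), which returned 34520628 to 199847246 reads per library over 26211 genes. Low read numbers were even in 62.6% of cases, so counted reads may not be single independent fragments. Each of 90 same-genotype pairs of libraries differed beyond counting noise (lowest chi-square per degree of freedom 76.7).

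Names (23950 genes, 2261 unnamed) and exon lengths came from GENCODE M21 on GRCm38, and promoter windows from RefSeq (GRCm38.p6), which is not the build of the table. The test was limma 3.58.1 in R 4.3.3 (lmFit, eBayes with trend) on log2(value + 1), whose pseudocount understates changes of low genes, for 17482 genes with a mean of at least 10, genotype as the only term, adjusted by Benjamini-Hochberg over all of them. Of these, 49 had an adjusted p under 0.05 (28 higher, 21 lower in KO), and 43 with edgeR 4.0.16 and 137 with DESeq2 1.42.0 on the recovered reads. Ratios and correlations were tested with 100000 permutations in scipy 1.17.1.

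The 8 genes and all lists were chosen with earlier results of these data known. Named genes are the 8, *P2ry14*, from each list of related genes the 3 with the smallest p, and for each of the 8 the 3 most alike. Alternatives were pseudocounts of 0.5 and 10, quantile normalization, TMM factors, a minimum mean of 100 or none, library weights, acinar or alpha marker share as a covariate, and leaving out each library.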

Additional observations from a re-analysis of the deposited data

Results flagged for a closer look

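Of 28 groups of 10 values, for the 8 genes and 6 ratios in each genotype, 2 held a library far from the others by Dixon's criterion at 95%, where chance gives about 1 in 20 groups. *Chga* had its highest WT value, 276580, in WT library 16, and the gap to the next library was 0.528 of the WT range. Without this library the log2 fold change of *Chga* was −0.06, beside −0.11 with all 20. *Ica1* had its lowest KO value, 7632, in KO replicate 5, the library with the fewest reads, with a gap of 0.546 of the KO range. Without it the log2 fold change of *Ica1* was −0.05 (adjusted p = 0.870 by limma).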

How the results depend on the processing

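The count of 0 among the 8 granule genes held in all 31 alternatives, in which their median log2 fold change ran from −0.19 to 0.003. With the alpha marker share as a covariate, added after seeing the data, *Chgb* (0.022) and *Ptprn* (0.020) changed sign; the other 6 genes kept theirs under all 31, as did these under the other 30. Of the list of other cargo and enzymes, 0 to 1 genes passed when 1 library was left out, and the other lists stayed at 0. The log2 ratio of *Scg2* to *Chgb* ran from 0.28 to 0.38 when 1 library was left out, short of the threshold in 14 of 20 fits, and that of *Ptprn* to *Ptprn2* from −0.019 to 0.085; the cause was not tested. Over all genes the count of 49 was 163 with library weights, 137 with DESeq2, 29 with a mean of at least 100, 22 with the alpha covariate, and 27 to 74 when 1 library was left out. No paired analysis was possible because WT columns carry the numbers 11 to 20 and the labels number WT samples 1 to 10. Depth limits *Vgf* most, at 135 reads or more per library.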
